A study of Mus musculus with 6 samples.

Results

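The mitochondrial carrier family (Slc25a genes) and the uncoupling proteins were followed in mouse C2C12 myotubes, multinucleated muscle cells that an established line of mouse myoblasts forms in low serum. The set held each gene whose symbol is Slc25a with a number, plus Ucp1 and Ucp3, measured by a probe set tied to 1 gene symbol. This gave 48 genes of the 19938 named on the array. Ucp2 was not analysed here. A gene with several probe sets was represented by the one with the highest mean.

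The study asked how knockdown of perilipin 2 (Plin2), a protein that coats lipid droplets, alters gene expression with and without fatty acids. There were 3 groups of myotubes that carried Plin2 siRNA, given palmitate, oleate or bovine serum albumin (BSA) alone, and 3 matching groups that carried scrambled siRNA, with 1 array for each of the 6 groups. Each siRNA was used at 10 nM. Both fatty acids were given at 200 µM for 20 h, bound to BSA at 2.5 fatty acid molecules per BSA, and BSA without fatty acid was the control. Growth in 10% serum, differentiation in 2% serum and transfection with a lipid reagent were common to all groups, controls included. Nothing in the labels says that the cultures were separate, so a p-value reflects no more than the spread over 6 arrays.

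Mitochondrial carriers sit in the inner membrane and exchange nucleotides, phosphate, carboxylates, amino acids, acylcarnitines and cofactors between cytosol and matrix. Uncoupling proteins belong to the same family; Ucp1 lets protons return to the matrix as heat in brown fat, and Ucp3 is found mainly in skeletal muscle, where its amount follows fatty acid supply. In muscle, the ADP/ATP and phosphate carriers feed ATP synthesis, and the carnitine/acylcarnitine carrier admits long-chain fatty acids for oxidation.

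Promoters of some members on which the results turn are shown. Slc25a20 and Slc25a3 rose, and Slc25a29 fell, with Plin2 siRNA under all alternative settings tried. Slc25a10 also rose under all of them, and its promoter is not shown. Ucp3 had the largest fitted change with each fatty acid against BSA. Each sequence is the 250 bases before the RefSeq start in GRCm38.p6, read 5′ to 3′ on the gene's strand; the build of the array's own annotation was not given in the sources used here. They lie at chr9:108661886-108662135 (plus strand, Slc25a20), chr10:91123968-91124217 (minus strand, Slc25a3), chr12:108835877-108836126 (minus strand, Slc25a29) and chr7:100472741-100472990 (plus strand, Ucp3). Capitals mark matches, on either strand, to the nuclear receptor half-site AGGTCA, the NRF1 site (GCGCA, any 1 base, GCGC) and the GC box GGGCGG.
Slc25a20: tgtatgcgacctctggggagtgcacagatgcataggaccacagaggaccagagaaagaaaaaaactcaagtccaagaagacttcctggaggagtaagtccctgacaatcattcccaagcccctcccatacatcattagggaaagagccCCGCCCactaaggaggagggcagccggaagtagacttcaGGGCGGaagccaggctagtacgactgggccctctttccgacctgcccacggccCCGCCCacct
Slc25a3: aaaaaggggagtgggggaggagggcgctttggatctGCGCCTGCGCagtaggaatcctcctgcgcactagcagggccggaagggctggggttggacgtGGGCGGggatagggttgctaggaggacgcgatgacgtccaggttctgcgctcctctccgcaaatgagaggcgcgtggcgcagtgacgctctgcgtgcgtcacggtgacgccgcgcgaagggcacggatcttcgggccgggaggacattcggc
Slc25a29: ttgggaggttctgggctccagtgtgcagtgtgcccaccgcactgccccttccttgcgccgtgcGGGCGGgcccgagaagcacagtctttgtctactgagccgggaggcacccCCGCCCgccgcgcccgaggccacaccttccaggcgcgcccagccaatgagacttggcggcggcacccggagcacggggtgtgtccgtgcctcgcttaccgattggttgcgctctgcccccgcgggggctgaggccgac
Ucp3: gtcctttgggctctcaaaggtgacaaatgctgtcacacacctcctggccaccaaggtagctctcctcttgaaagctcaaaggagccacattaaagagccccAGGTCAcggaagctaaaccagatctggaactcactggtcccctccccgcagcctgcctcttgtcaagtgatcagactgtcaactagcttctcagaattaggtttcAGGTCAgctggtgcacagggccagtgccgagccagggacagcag

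Slc25a20 held 3 GC boxes, the last of them 10 bases before the start. Slc25a3 held 1 NRF1 site, 214 bases before the start, and 1 GC box. Slc25a29 held 2 GC boxes, and Ucp3 held 2 half-sites, 149 and 44 bases before its start. Over all 32851 promoters in the RefSeq table, 14% held the half-site, 3.74% the NRF1 site and 32.7% the GC box. The table held 48 promoters for 38 of the members, and of these 6 (12.5%), 2 (4.17%) and 32 (66.7%) held them in that order. The direct repeat bound by PPAR receptors (AGGTCA, any 1 base, AGGTCA), which contains the half-site, was in 0 of the 48 member promoters and in 0.0335% of all promoters. These matches describe letters in this window and are not measured binding sites.

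The knockdown was checked first. Plin2 had log2 expression of 7.45, 7.63 and 6.95 in Plin2 siRNA cells, against 10.10, 10.03 and 9.29 in scrambled siRNA cells, in palmitate, oleate and BSA in that order; this order of arrays is kept below. Its change was -2.47 (SE 0.08, limma adjusted p = 2.3e-08), and the groups did not overlap. Array medians lay between 4.94 and 5.02 and pairwise correlations between 0.987 and 0.994. All expression values are log2 units, as deposited, and a change is the Plin2 siRNA level minus the scrambled level. The error of an siRNA change combines its variation between the 3 treatments with the spread of other probe sets of similar intensity. The former has 2 residual degrees of freedom, and the latter has 9.21 prior ones and so weighs more. Adjusted p-values come from limma with Benjamini-Hochberg adjustment over 21789 probe sets.

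The cells carried myotube markers in every array, and these moved with the siRNA. Over all named genes, 8.31% rose and 8.8% fell with Plin2 siRNA at a limma adjusted p under 0.05, the rule for the markers below. Of 10 myotube markers, 6 fell (among them Mb -0.70 and Myog -0.69) and Myod1 rose (0.46); their mean level was 12.24 to 12.27 in Plin2 siRNA arrays and 12.40 to 12.54 in scrambled arrays. Of 5 myoblast markers, Id3 (1.60) and Myf5 (0.63) rose and Cdh15 (-0.62) fell, with mean levels of 7.83 to 7.87 in Plin2 siRNA arrays and 7.41 to 7.54 in scrambled arrays. Of 5 cell cycle genes measured, Mcm6 (-0.90) and Ccna2 (-0.48) fell, with mean levels of 6.88 to 7.02 in Plin2 siRNA arrays and 7.15 to 7.40 in scrambled arrays. None of 8 adipocyte markers passed the limma test, 5 of the 8 had a mean level below 4.49, the bound of the bottom tercile of probe sets, and no marker was at 0; their mean level was 4.17 to 4.44 in Plin2 siRNA arrays and 4.23 to 4.33 in scrambled arrays. The part of these shifts in the carrier results was not tested. In such bulk samples, fewer cells of a type and less RNA per cell cannot be told apart.

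With Plin2 siRNA, 8 of the 48 carriers rose and 4 fell at an adjusted p under 0.05 in limma. That is 25.0% of the set, against 17.1% of all named genes; by direction the background was 8.31% higher and 8.8% lower. The carriers that rose were Slc25a20, Slc25a10, Slc25a27, Slc25a11, Slc25a3, Slc25a16, Slc25a51 and Slc25a36, by 0.30 to 0.56 log2 units. Slc25a29, Slc25a33, Slc25a25 and Slc25a37 fell, with changes of -0.32 to -0.67. The median change of the 48 was 0.07, beside 0.004 for all named genes. No filter on low signal was applied: 37 of the 48 had a mean above that bound of 4.49, and all 12 called genes were among those 37. The 11 below it were Ucp1, Slc25a2, Slc25a13, Slc25a18, Slc25a21, Slc25a31, Slc25a34, Slc25a41, Slc25a48, Slc25a53 and Slc25a54.

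In 19 of the 48 genes (39.6%) the Plin2 siRNA and scrambled arrays did not overlap, 15 with Plin2 siRNA above and 4 below; over all named genes this share was 30.4% (15.3% above and 15% below). The 3 pairs of arrays had the same sign in 26 of the 48, 19 higher and 7 lower in Plin2 siRNA cells; over all named genes 23.2% were higher and 22.2% lower in all 3 pairs. All 12 that passed the test were among the 19. Only Slc25a20, Slc25a3, Slc25a10 and Slc25a29 kept their call under each of 12 alternative settings. Leaving out either BSA array left 7 called (14.6%, beside 10.2% of all named genes), with Slc25a25, Slc25a27, Slc25a33, Slc25a37 and Slc25a51 lost. Fitting all 35556 probe sets, those unlisted or tied to several symbols included, left 4 of 48 called (8.33%, beside 7.74% of all named genes).

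**Figure D1:**
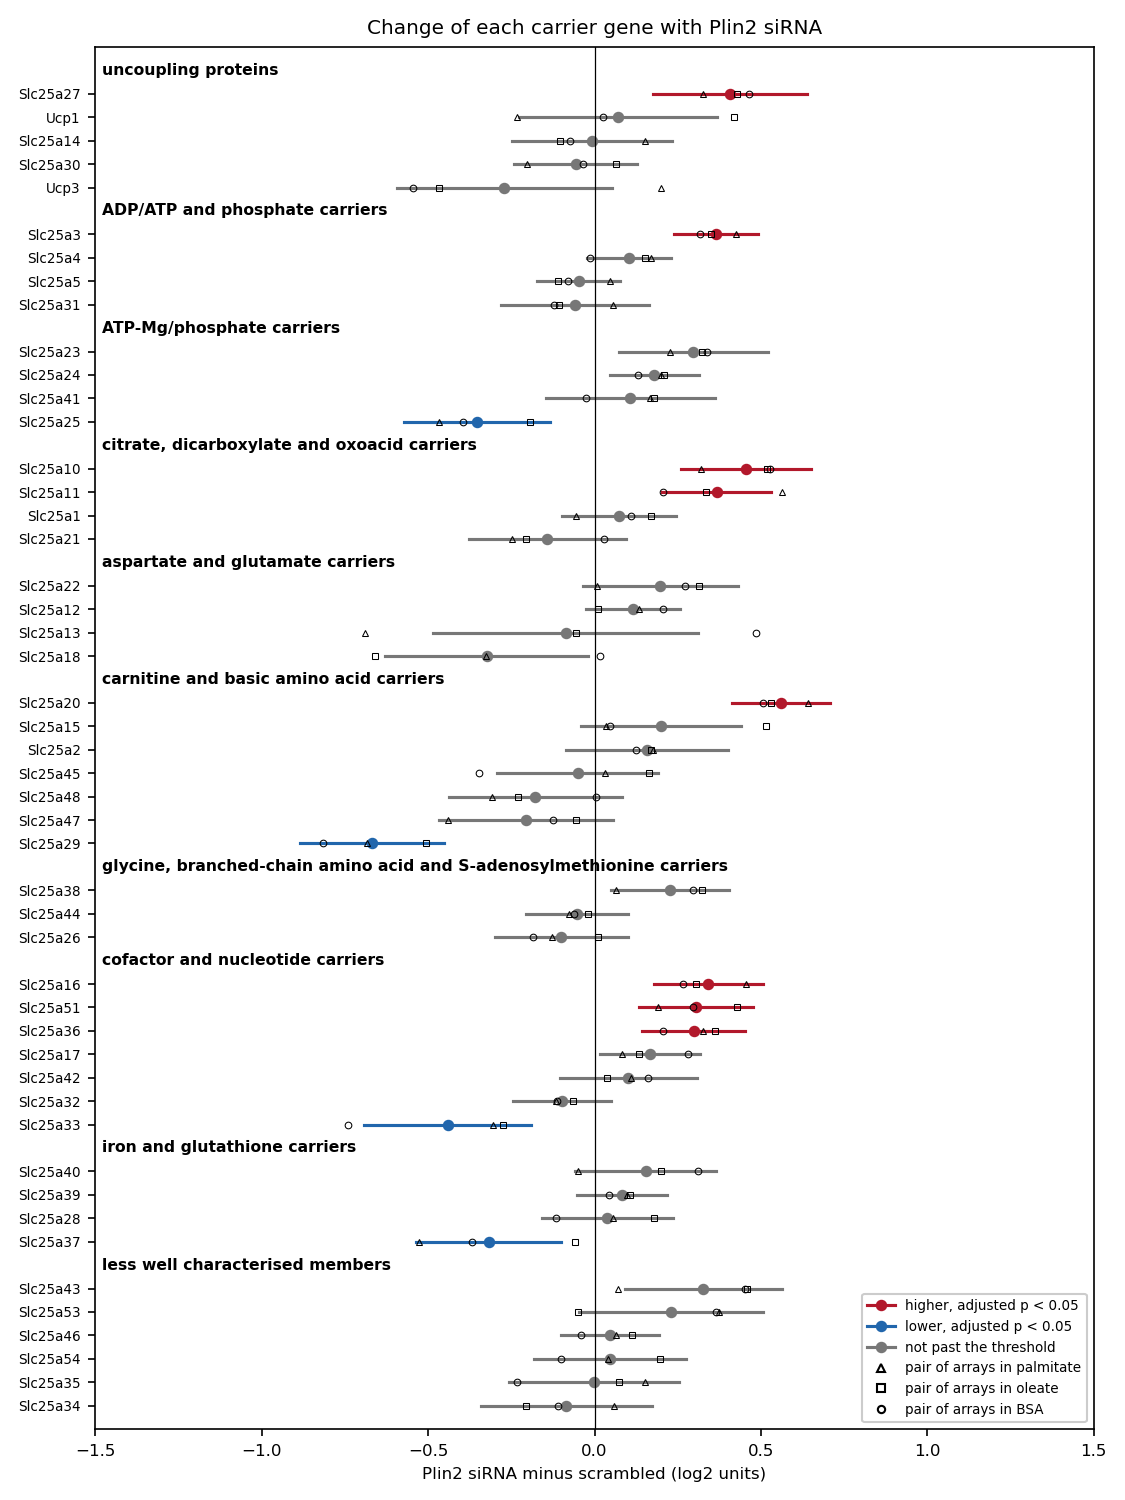
Change of each of the 48 carrier genes, Plin2 siRNA minus scrambled in log2 units (x axis), grouped by role. Filled points and bars are the limma estimate with its 95% confidence interval, open symbols are the 3 pairs of arrays, and colour marks an adjusted p under 0.05. The 8 genes that rose lie between 0.30 and 0.56 and the 4 that fell between -0.67 and -0.32, spread over 7 of the 10 role groups.

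Among the carnitine and basic amino acid carriers, 1 of 7 rose and 1 fell. Slc25a20, the carnitine/acylcarnitine exchanger that brings acylcarnitines into the matrix, stood at 9.70, 9.60 and 9.41 in Plin2 siRNA cells, against 9.06, 9.07 and 8.90 in scrambled siRNA cells. The change was 0.56 (SE 0.07, adjusted p = 0.00016), a 1.47-fold rise, and the lowest Plin2 siRNA array was above the highest scrambled array. Slc25a29, a relative of Slc25a20 that carries arginine and other basic amino acids, stood at 6.38, 6.23 and 6.36 in Plin2 siRNA cells, against 7.07, 6.74 and 7.18 in scrambled siRNA cells. It changed by -0.67 (SE 0.10, adjusted p = 0.0007), 1.59-fold lower, with pair differences of -0.68, -0.51 and -0.82. So the gene with the largest fitted rise and the one with the largest fitted fall among the 48 came from the same role group. The other 5 members, the ornithine carriers Slc25a2 and Slc25a15 together with Slc25a45, Slc25a47 and Slc25a48, changed by -0.21 to 0.20 and did not pass the test.

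Carriers of tricarboxylic acid cycle intermediates included 2 that rose of 4. Slc25a10, which exchanges malate or succinate for phosphate, had levels of 7.32, 7.33 and 7.49 in Plin2 siRNA cells, against 7.00, 6.81 and 6.96 in scrambled siRNA cells. The Plin2 siRNA arrays were higher in all 3 pairs, by 0.32, 0.52 and 0.53, with a fitted change of 0.46 (SE 0.09, adjusted p = 0.0043). Slc25a11, the oxoglutarate/malate exchanger of the malate-aspartate shuttle, had levels of 10.05, 10.24 and 10.06 in Plin2 siRNA cells, against 9.49, 9.90 and 9.86 in scrambled siRNA cells, and a change of 0.37 (SE 0.07, adjusted p = 0.0054). Its scrambled palmitate array was the lowest of the 6, and the pair differences were 0.56, 0.34 and 0.21. The citrate carrier Slc25a1 (0.07, adjusted p = 0.64) and the oxodicarboxylate carrier Slc25a21 (-0.14, adjusted p = 0.48) did not pass.

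The shuttle's aspartate/glutamate exchangers, Slc25a12 and Slc25a13, and the glutamate carriers Slc25a18 and Slc25a22 gave 0 calls of 4, and 1 had an unadjusted limma p under 0.05. That one, Slc25a18, had the largest fitted change of the 4, with levels of 4.30, 3.86 and 4.15 in Plin2 siRNA cells, against 4.62, 4.52 and 4.13 in scrambled siRNA cells and a change of -0.32 (SE 0.14, adjusted p = 0.15). Without either oleate array the change was -0.16, and without either BSA array -0.49. The groups overlapped, since 2 of the Plin2 siRNA arrays were above the scrambled BSA array. The mean level of Slc25a18, 4.26, lay below the 4.49 bound.

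Of the carriers that serve ATP synthesis, the phosphate carrier Slc25a3 rose and the ADP/ATP exchangers did not pass the test. Slc25a3, which imports the phosphate joined to ADP, was at 10.95, 11.13 and 10.95 in Plin2 siRNA cells, against 10.52, 10.78 and 10.63 in scrambled siRNA cells. The groups were separate, and the change was 0.36 (SE 0.06, adjusted p = 0.0011), or 1.29-fold. Slc25a4, the main ADP/ATP exchanger of muscle, changed by 0.10 (95% confidence interval -0.02 to 0.23) and Slc25a5, an exchanger found in many tissues, by -0.05 (-0.17 to 0.08). Slc25a5 is known to have near-identical copies in the genome, and whether its 3 probe sets also read these was not tested; the changes of all 3 lay between -0.06 and -0.05. Slc25a31, the exchanger of testis, changed by -0.06 (adjusted p = 0.81).

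The ATP-Mg/phosphate carriers set the size of the matrix nucleotide pool, and 1 of the 4 fell. Slc25a25, a calcium-regulated member, had levels of 6.26, 6.39 and 6.27 in Plin2 siRNA cells, against 6.73, 6.59 and 6.66 in scrambled siRNA cells, with a change of -0.35 (SE 0.10, adjusted p = 0.031). Each Plin2 siRNA array was below each scrambled array, although the oleate pair differed by -0.20. The change did not pass without either BSA or either palmitate array. Slc25a23, Slc25a24 and Slc25a41 changed by 0.11 to 0.30 without passing. Of the 4, 3 had an unadjusted limma p under 0.05. For Slc25a23 (0.30, limma adjusted p = 0.073) and Slc25a24 (0.18, limma adjusted p = 0.067), each Plin2 siRNA array was above each scrambled array.

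**Figure D2:**
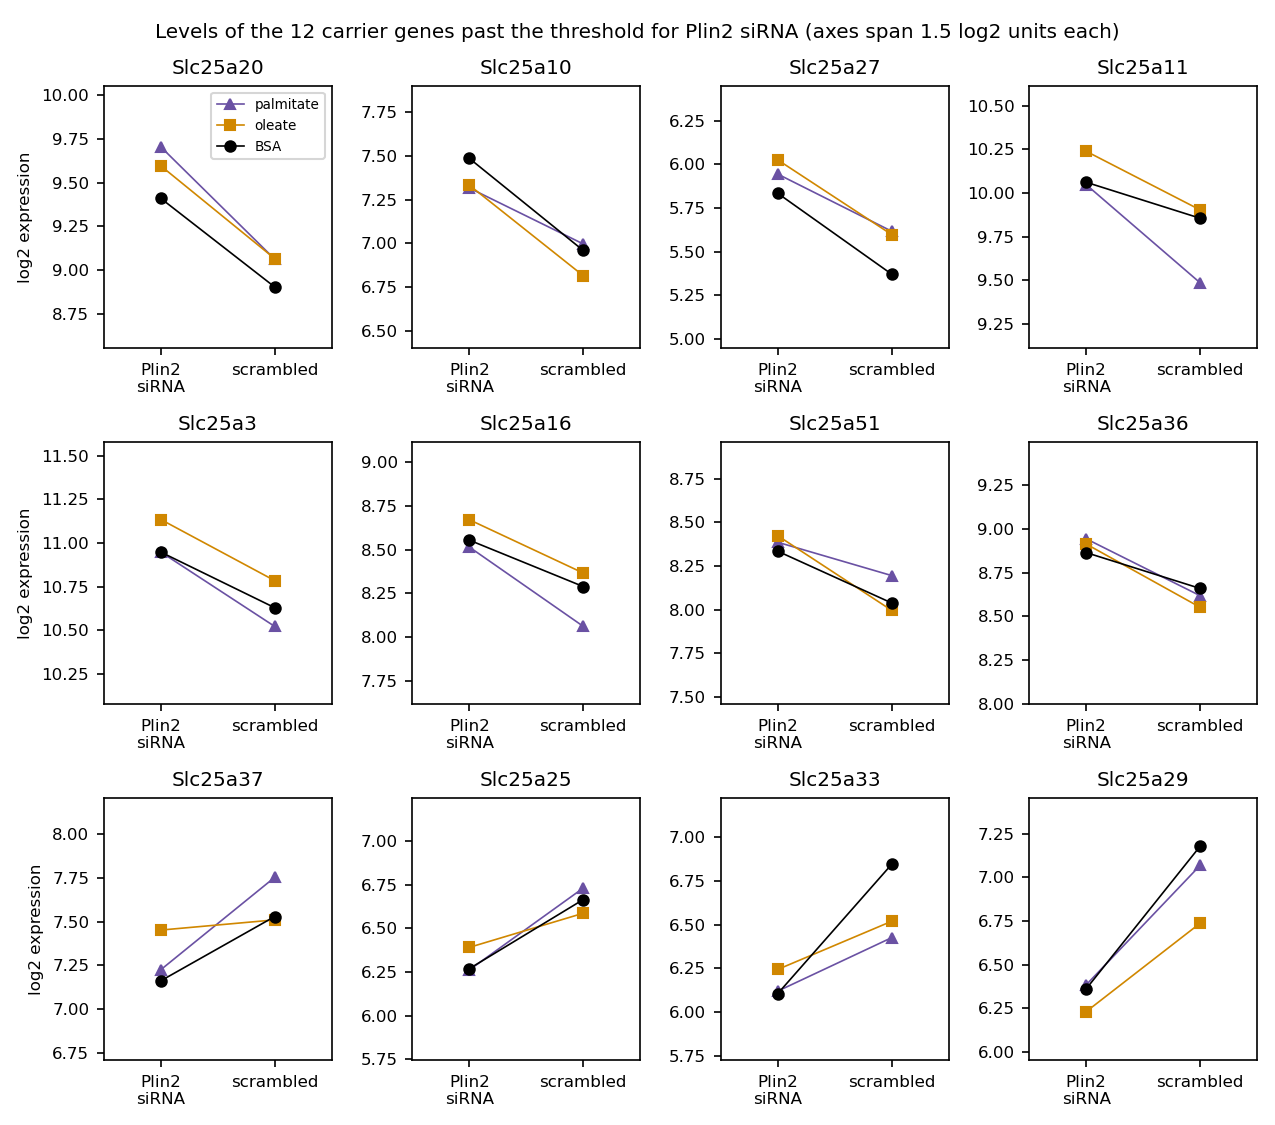
Log2 expression (y axis) of the 12 carrier genes that passed the test for Plin2 siRNA, 1 point per array, with Plin2 siRNA at left and scrambled siRNA at right and a line joining the arrays of one treatment. The lines all fall from Plin2 siRNA to scrambled in the 8 genes that rose and all climb in the 4 that fell; the oleate line of Slc25a37 is nearly flat, at -0.06.

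The cofactor and nucleotide carriers held 3 that rose and 1 that fell of 7. Slc25a16, a relative of a yeast protein of coenzyme A import, was at 8.52, 8.67 and 8.55 in Plin2 siRNA cells, against 8.06, 8.37 and 8.29 in scrambled siRNA cells, with a change of 0.34 (SE 0.07, adjusted p = 0.0083). The NAD carrier Slc25a51 was at 8.39, 8.42 and 8.33 in Plin2 siRNA cells, against 8.19, 8.00 and 8.04 in scrambled siRNA cells; its change was 0.30 (SE 0.08, adjusted p = 0.019), and it did not pass without either BSA or either oleate array. The 2 pyrimidine nucleotide carriers of the set moved in opposite directions. Slc25a36 was at 8.94, 8.91 and 8.87 in Plin2 siRNA cells, against 8.62, 8.55 and 8.66 in scrambled siRNA cells, a change of 0.30 (SE 0.07, adjusted p = 0.013). Its other probe set rose as well, by 0.40 (adjusted p = 0.0036). Slc25a33 was at 6.12, 6.24 and 6.10 in Plin2 siRNA cells, against 6.42, 6.52 and 6.84 in scrambled siRNA cells, with a change of -0.44 (SE 0.11, adjusted p = 0.021). Its BSA pair differed most, by -0.74, and the change was -0.29 without the scrambled BSA array (adjusted p = 0.26) and without the Plin2 siRNA BSA array (adjusted p = 0.25). Slc25a17, Slc25a32 and Slc25a42, a peroxisomal cofactor carrier, a folate or FAD carrier and a coenzyme A carrier, changed by -0.10 to 0.17 and did not pass.

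Of 4 iron and glutathione carriers, Slc25a37 fell. This gene encodes mitoferrin-1, an iron importer known from developing red cells, and stood at 7.23, 7.45 and 7.16 in Plin2 siRNA cells, against 7.75, 7.51 and 7.53 in scrambled siRNA cells. Its change was -0.32 (SE 0.10, adjusted p = 0.049), the closest of the 12 to the threshold, and the highest Plin2 siRNA array lay just below the lowest scrambled array. It lost its call under 7 of the 12 alternatives: with no intensity trend, with all probe sets, under quantile normalization (adjusted p = 0.0501) and without any 1 of the BSA or palmitate arrays. Without the scrambled palmitate array the change was -0.21 (adjusted p = 0.22), and without the Plin2 siRNA palmitate array -0.21 (adjusted p = 0.21). The other iron importer Slc25a28 (mitoferrin-2), the glutathione carrier Slc25a39 and its relative Slc25a40 changed by 0.04 to 0.15. A further probe set of Slc25a40 changed by -0.04 (limma adjusted p = 0.91).

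Among the 5 uncoupling proteins and their relatives, 1 passed the test. Slc25a27 (UCP4), best known from brain, rose, with levels of 5.94, 6.03 and 5.83 in Plin2 siRNA cells, against 5.62, 5.60 and 5.37 in scrambled siRNA cells and a change of 0.41 (SE 0.11, adjusted p = 0.021); without either BSA or either oleate array it did not pass. Ucp3, the uncoupling protein of skeletal muscle, was at 5.46, 5.41 and 4.63 in Plin2 siRNA cells, against 5.26, 5.87 and 5.17 in scrambled siRNA cells. The Plin2 siRNA level was lower in oleate and BSA and higher in palmitate, and the change was -0.27 (SE 0.15, adjusted p = 0.28). Without the scrambled palmitate array the change was -0.51 (adjusted p = 0.017), and without the Plin2 siRNA palmitate array -0.51 (adjusted p = 0.018). It shrank to -0.13 (adjusted p = 0.79) without the scrambled BSA array and to -0.17 (adjusted p = 0.61) without the scrambled oleate array, with the same changes when the matching Plin2 siRNA array was left out. Ucp1, of brown fat, had a mean below the 4.49 bound, at 3.74, 4.09 and 3.99 in Plin2 siRNA cells, against 3.97, 3.68 and 3.97 in scrambled siRNA cells, a change of 0.07 (SE 0.14, adjusted p = 0.83) that turned to -0.10 without either oleate array. The relatives Slc25a14 and Slc25a30 changed by -0.01 and -0.06 and did not pass.

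The glycine, branched-chain amino acid and S-adenosylmethionine carriers gave 0 calls of 3, and the less characterised members 0 of 6, with 1 unadjusted limma p under 0.05 in each group. Slc25a38, which carries glycine for haem synthesis, was at 8.19, 8.10 and 8.42 in Plin2 siRNA cells, against 8.13, 7.78 and 8.12 in scrambled siRNA cells, a change of 0.23 (SE 0.08, adjusted p = 0.084). Slc25a43, a member with no settled substrate, was at 6.48, 6.85 and 6.83 in Plin2 siRNA cells, against 6.40, 6.39 and 6.38 in scrambled siRNA cells, a change of 0.33 (SE 0.11, adjusted p = 0.059). Both passed when a palmitate array was left out: without the scrambled palmitate array the changes were 0.31 (adjusted p = 0.028) for Slc25a38 and 0.45 (adjusted p = 0.012) for Slc25a43. The palmitate pair had the smallest difference in both, at 0.06 and 0.07. Over the 12 alternatives the changes were as low as 0.18 for Slc25a38 and 0.26 for Slc25a43. The limma adjusted p was as high as 0.40 and 0.34. The branched-chain amino acid carrier Slc25a44 changed by -0.05 and the S-adenosylmethionine carrier Slc25a26 by -0.10. Slc25a46, an outer membrane member that takes part in mitochondrial shape, changed by 0.05, and the other less characterised members by -0.08 to 0.23.

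Other mitochondrial transport genes, without an Slc25a symbol, were listed for context. Of 23 measured, 7 rose and 1 fell with Plin2 siRNA, while 8.31% of all named genes rose and 8.8% fell. Those that rose were Ppif, a regulator of the permeability transition pore, and the sideroflexin Sfxn4 (0.63 and 0.61), the outer membrane channel Vdac1 (0.34), the carnitine palmitoyltransferases Cpt2 (0.34) and Cpt1a (0.27), and the distant carrier family members Mtch2 (0.30) and Mtch1 (0.22). The ABC transporter Abcb8 fell (-0.45). Cpt1b, the carnitine palmitoyltransferase typical of muscle, was not analysed here. Of 8 transcriptional regulators of mitochondrial genes, the coactivator Ppargc1a (1.52) and the fatty acid receptor Ppara (0.54) rose and 0 fell. The same shares over all named genes apply here.

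Oleate was compared with BSA at one dose and time, in both siRNAs, and 0 of the 48 carriers passed the limma test, against 0.0802% of all named genes (0.0351% higher and 0.0451% lower). An unadjusted p under 0.05 was found for 7 of the 48, and for 1241 of the 19938 named genes. The median fitted change was 0.02, beside -0.02 for all named genes. Ucp3 had the largest fitted change, 0.74 (SE 0.18, adjusted p = 0.32), 95% confidence interval 0.34 to 1.14. Its level was 5.41 with oleate against 4.63 with BSA in Plin2 siRNA cells, and 5.87 against 5.17 in scrambled siRNA cells, so it was higher with oleate in both pairs. The change passed in a fit of the 4 oleate and BSA arrays alone (adjusted p = 0.032). It also passed without either palmitate array, where the fitted change was the same. The remaining palmitate array then has no weight in the oleate change, so these fits are near copies of the 4-array fit. Without the Plin2 siRNA oleate array, which leaves 1 oleate array, the change was 0.89. Over the 13 alternatives the change ranged from 0.54 to 0.95, and in 9 of them it did not pass.

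The next largest fitted changes with oleate were in Slc25a38, at -0.33 (SE 0.10, adjusted p = 0.51), and Slc25a29, at -0.29 (SE 0.12, adjusted p = 0.75), followed by Slc25a45, a relative of the carnitine carrier, at 0.26 (SE 0.13, adjusted p = 0.81), and Slc25a4, at 0.25 (SE 0.07, adjusted p = 0.47). Slc25a38 was at 8.10 with oleate against 8.42 with BSA in Plin2 siRNA cells, and 7.78 against 8.12 in scrambled siRNA cells. Slc25a29 was at 6.23 with oleate against 6.36 with BSA in Plin2 siRNA cells, and 6.74 against 7.18 in scrambled siRNA cells. Both were lower with oleate in each siRNA. Slc25a45 was at 6.97 with oleate against 6.46 with BSA in Plin2 siRNA cells, and 6.80 against 6.80 in scrambled siRNA cells, so only the Plin2 siRNA pair differed. Slc25a4 was at 12.20 with oleate against 11.87 with BSA in Plin2 siRNA cells, and 12.05 against 11.89 in scrambled siRNA cells, higher with oleate in each siRNA. Slc25a20 changed by 0.17 (95% confidence interval -0.004 to 0.35). Among the other transport genes, Cpt1a rose with oleate by 1.40.

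**Figure D3:**
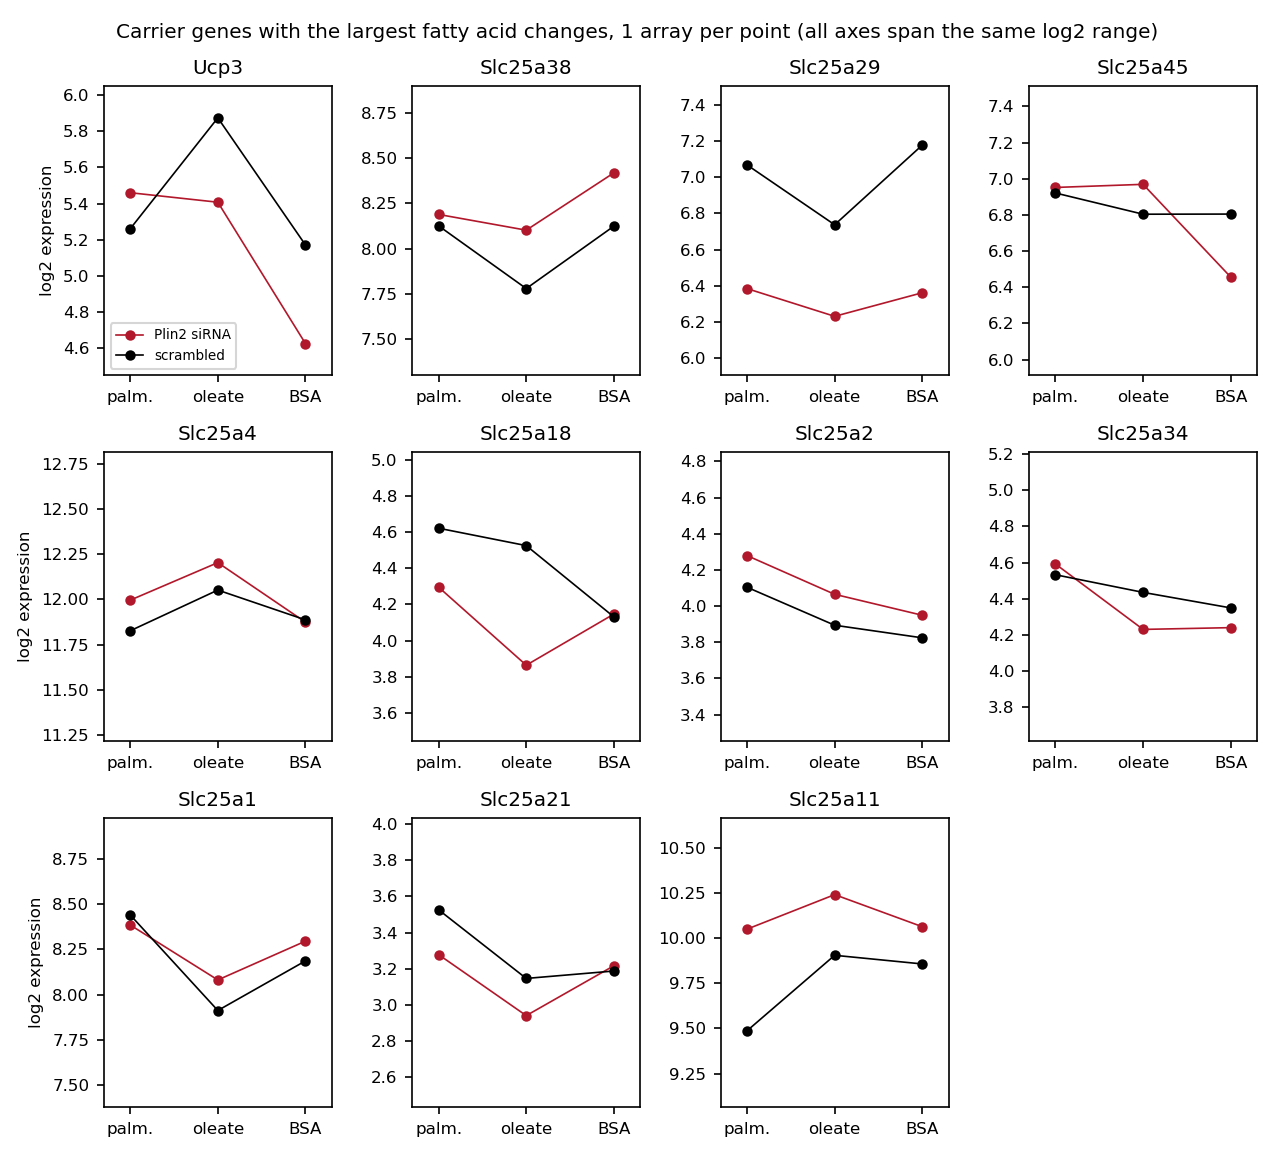
Log2 expression (y axis) of the carrier genes with the 5 largest fitted changes in each fatty acid comparison, with palmitate, oleate and BSA from left to right, 1 array per point; red is Plin2 siRNA and black scrambled siRNA. Ucp3 is higher with oleate than with BSA in both siRNAs, whereas with palmitate it is higher in the Plin2 siRNA cells by 0.83 and in the scrambled siRNA cells by 0.09.

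For palmitate against BSA, 0 of 48 passed in limma (background 0.01%), and 4 had an unadjusted p under 0.05, beside 1037 of the 19938 named genes. This comparison shares its BSA arrays with the oleate one. Ucp3 again had the largest fitted change, 0.46 (SE 0.18, adjusted p = 0.93), with an interval of 0.06 to 0.86. It was at 5.46 with palmitate against 4.63 with BSA in Plin2 siRNA cells, and 5.26 against 5.17 in scrambled siRNA cells, so that nearly all of the difference was in one pair. Without the scrambled palmitate array the change was 0.81, and without the Plin2 siRNA palmitate array 0.11. The next were the glutamate carrier Slc25a18 (0.32), Slc25a45 (0.31), the ornithine carrier Slc25a2 (0.30) and Slc25a34, of unsettled substrate (0.27), each with an adjusted p of 0.94. Slc25a18 was at 4.30 with palmitate against 4.15 with BSA in Plin2 siRNA cells, and 4.62 against 4.13 in scrambled siRNA cells. Slc25a2 was at 4.28 with palmitate against 3.95 with BSA in Plin2 siRNA cells, and 4.10 against 3.82 in scrambled siRNA cells. Slc25a34 was at 4.59 with palmitate against 4.24 with BSA in Plin2 siRNA cells, and 4.53 against 4.35 in scrambled siRNA cells. These 3 had mean levels below the 4.49 bound and were higher with palmitate in both siRNAs. Slc25a45 was higher as well, at 6.95 with palmitate against 6.46 with BSA in Plin2 siRNA cells, and 6.92 against 6.80 in scrambled siRNA cells. Slc25a20 changed by 0.23 (interval 0.05 to 0.41) and Cpt1a rose by 1.18.

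Palmitate, which is saturated, was set against oleate, which has a double bond, at the same dose and time. Again 0 of the 48 passed (limma; background 0.281%), and 8 had an unadjusted p under 0.05, beside 1818 of the 19938 named genes. The citrate carrier Slc25a1, which exports the carbon used for fatty acid synthesis, had the largest fitted change, 0.42 (SE 0.10, adjusted p = 0.15), interval 0.21 to 0.63. It was at 8.38 with palmitate against 8.08 with oleate in Plin2 siRNA cells, and 8.44 against 7.91 in scrambled siRNA cells, higher with palmitate in both. Slc25a21 followed with 0.36 (SE 0.13, adjusted p = 0.45), and was at 3.28 with palmitate against 2.94 with oleate in Plin2 siRNA cells, and 3.53 against 3.15 in scrambled siRNA cells. The mean levels of Slc25a21 (3.22) and of Slc25a18, given below, were under the 4.49 bound. Slc25a11 was lower with palmitate in both pairs, at 10.05 with palmitate against 10.24 with oleate in Plin2 siRNA cells, and 9.49 against 9.90 in scrambled siRNA cells, a change of -0.30 (SE 0.09, adjusted p = 0.34). Ucp3 changed by -0.28 (SE 0.18, adjusted p = 0.72), with pair differences of 0.05 in Plin2 siRNA cells and -0.61 in scrambled siRNA cells, and the change turned to 0.072 without the scrambled palmitate array. Slc25a18 changed by 0.26 (SE 0.17, adjusted p = 0.72), with pair differences of 0.43 in Plin2 siRNA cells and 0.10 in scrambled siRNA cells, and by 0.011 without the Plin2 siRNA oleate array and 0.52 without the scrambled oleate array. Slc25a1 changed by 0.49 without the Plin2 siRNA oleate array and by 0.51 without the Plin2 siRNA palmitate array. Slc25a11 changed by -0.45 without the Plin2 siRNA palmitate array. Over the alternatives, Slc25a1 ranged from 0.32 to 0.51 and Slc25a11 from -0.45 to -0.16. A missed threshold does not show that the 2 fatty acids act alike.

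Whether the siRNA change depended on fatty acid was asked with a term for Plin2 siRNA with any fatty acid. The term joins palmitate and oleate and does not test an siRNA change that differed between them. It was passed by 0 of the 48 carriers in limma (background 0% of all named genes), and 1 had an unadjusted p under 0.05, beside 511 of the 19938 named genes, with 1 residual degree of freedom in this model. That gene was Slc25a13, the aspartate/glutamate exchanger also called citrin, at 3.96, 4.15 and 4.45 in Plin2 siRNA cells, against 4.66, 4.20 and 3.97 in scrambled siRNA cells. Its mean level of 4.23 lay below the 4.49 bound. Its pair differences were -0.69, -0.06 and 0.48, and the term was -0.86 (adjusted p = 1.00). Across the set, the median siRNA difference was 0.06 in palmitate, 0.12 in oleate and 0.03 in BSA, beside -0.04, 0.03 and 0.02 over all named genes. The carriers above 0 numbered 32, 31 and 27 of the 48 in that order (66.7%, 64.6% and 56.2%), and 44.2%, 55.1% and 52.6% of all named genes were above 0.

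**Figure D4:**
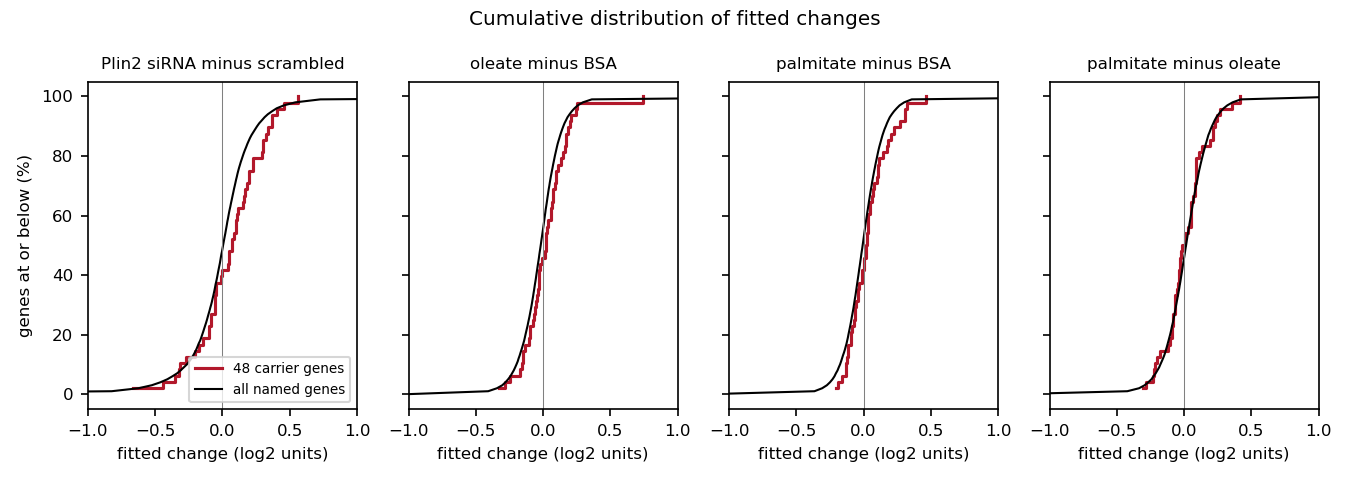
Share of genes (y axis, percent) at or below each fitted change (x axis, log2 units) for 4 comparisons; red steps are the 48 carrier genes and the black line all 19938 named genes. For Plin2 siRNA the carriers have a median of 0.07 against 0.004, and for the fatty acids both curves are steep around 0.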

How the data were processed

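The deposited log2 expression values, 1 per probe set, were made by the authors with RMA, per the submitters' processing notes; its version is not given in the sources used here, nor is a genome build. Per the labels' protocols, 100 ng of RNA (integrity number over 8) was used for biotin labelling on Affymetrix whole-transcript arrays. Values of 35556 probe sets were used as deposited. The platform annotation tied 21789 to 1 symbol (19938 genes) and 1621 to several, and 12146 were not listed.

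Changes were fitted over the 21789 with limma 3.58.1 in R 4.3.3 (treatment and siRNA as terms, eBayes with an intensity trend, no filter on low signal), with 2 residual and 9.21 prior degrees of freedom. Significance was a Benjamini-Hochberg adjusted p under 0.05. The fit was tested on simulated data in which the added siRNA change was larger than any fitted carrier change, so detection of smaller changes was not tested. Named genes were Plin2, members past the siRNA threshold, Ucp1, Ucp3 and Slc25a20, the 5 largest changes of each fatty acid comparison, and the largest siRNA change of each role group without a call. Members, role groups and lists were chosen with earlier results of these data known. Alternatives were no trend, all probe sets, no probe sets of the bottom tercile by mean level, quantile normalization, median centring, mean probe set, the compared arrays alone and leaving out each array. Motifs were searched in RefSeq promoters (GRCm38.p6), matched by symbol.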

Additional observations from a re-analysis of the deposited data

How the results depend on the processing

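With 12 carriers called for Plin2 siRNA (8 up, 4 down), admitting all probe sets to the fit left 4 (3 up, 1 down), and leaving out 1 array gave 7 to 13, with 7 when either BSA array was absent. Without the intensity trend 8 were called (16.7%, beside 11.2% of all named genes), and without the bottom tercile by mean level 15 of 37 (40.5%, beside 28.3% of the genes fitted). With 1 array left out, 10.2% to 17.5% of all named genes were called. Quantile normalization gave 9 up and 3 down (25.0%, beside 17.2% of all named genes). Of 144 values of the 12 changes over the alternatives, 113 stayed past the threshold, 31 did not, and 0 turned sign. The sign had little room to turn. Each of the 12 had the same sign in all 3 pairs, and a fit without 1 array averages the remaining pairs. For oleate against BSA the count was 0, and 1 (Ucp3, 2.08%, beside 0.296% of all named genes) with the 4 compared arrays alone. It was also 1 without either palmitate array (beside 0.301% and 0.306%). For palmitate against oleate it was 0, also without either BSA array (beside 0.401% and 0.411%). Fits that left 1 array of a compared treatment are not included in these counts for oleate against BSA and palmitate against oleate. Some of those fits gave a different count. Counts for palmitate against BSA and for the siRNA by fatty acid term were 0 in each alternative run. The Ucp1 change with siRNA, 0.07, ranged from -0.10 (without either oleate array) to 0.22 (without either palmitate array), and the Ucp3 change for palmitate against oleate, -0.28, from -0.63 without the Plin2 siRNA palmitate array to 0.072 without the scrambled palmitate array. The cause of these shifts was not tested. The treatments pair the arrays of the 2 siRNAs, and the fit with treatment as a term is that paired analysis; each condition has 1 array, so there is no replicate number to block on. Leaving out an array of a treatment leaves its partner without weight in the siRNA change, so the 2 results are near copies. In a fatty acid comparison, leaving out an array of the treatment not compared nearly repeats the fit of the 4 compared arrays. With 1 array per condition, culture and condition cannot be told apart, and 11 of the 48 carriers lay in that tercile, where array signal limits what a small change can show.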
